A study of Rattus norvegicus with 46 samples.

Results

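Calcium handling of the cardiac myocyte was followed through 8 genes: the calcium pump Atp2a2 and its inhibitor Pln, the release channel Ryr2, the store proteins Casq2 and Asph, the surface channel Cacna1c, the exchanger Slc8a1 and the kinase Camk2d. All probe sets annotated to exactly 1 gene symbol, that of a member, were taken, which gave 22 of the 8740 probe sets and 8 of the 4736 genes with such a probe set. Slc8a1 had 5, Camk2d 6, Atp2a2 4 and Cacna1c 3 probe sets, and Pln, Ryr2, Casq2 and Asph had 1 each.

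Total RNA of the left ventricle of male Wistar rats was measured on 46 arrays, each holding 1 RNA pool from several animals. Hypertrophy was induced by a clip around the ascending aorta (aortic banding, AB; 6, 12 and 16 weeks with 2 arrays each and 30 weeks with 4), by ligation of a coronary artery with the scar tissue discarded (myocardial infarction, MI; 3 and 9 weeks, 4 arrays each), or by an aorto-caval fistula (shunt; 3 and 8 weeks, 2 arrays each). Angiotensin II (AngII), the pressor hormone, from implanted pumps and Ditpa, a thyroid hormone analogue, by daily injection were given for 2 weeks (2 arrays each), and 2 further arrays held neonatal hearts, collected days after birth. Each surgical time point had 2 sham-operated arrays of its own, in which the clip, the tied ligature or the vessel puncture was left out, and both hormone groups shared 2 vehicle arrays. The groups are written AB6 to AB30, MI3, MI9, Shunt3, Shunt8, AngII and Ditpa, with the weeks as the number. The vehicle labels give a subcutaneous saline infusion, and the labels call Ditpa an infusion too, where the methods describe injections. Adult and neonatal hearts differ in age and body size as well as in the absence of surgery or vehicle, and MI pools hold the surviving wall of hearts with large transmural infarcts alone, so these are comparisons of tissue as sampled.

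With each heartbeat a small calcium current through the surface L-type channel opens ryanodine receptors in the sarcoplasmic reticulum, the calcium store inside the myocyte, and the released calcium drives contraction. Relaxation follows as the pump SERCA2 returns calcium to the store and the sodium-calcium exchanger carries the rest out of the cell. Phospholamban holds the pump back until it is phosphorylated, and calmodulin-dependent kinase II is one of the kinases that do so. A lower pump level is a well known feature of pressure-overloaded and failing hearts, and the exchanger is known for its high level in the fetal and newborn ventricle.

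Values are the deposited model-based signal of each probe set, a linear intensity. A signal depends on the probes as well as on the RNA, so no probe set's signal is set against another's as an amount of RNA. An effect is the log2 signal of a treated group minus that of its sham or vehicle arrays, given ± SE, from 1 limma fit over all arrays and probe sets, and a probe set was called where its Benjamini-Hochberg adjusted p over all 8740 was below 0.05. Since each array held a pool, p-values measure the spread between pools, not between animals. In whole tissue, fewer cells of a type and less RNA per cell cannot be told apart.

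Array medians were alike (1003 to 1084), but the bright end was not. The 99th percentile of the signal was 17174 to 17587 on the 4 hormone arrays, against 22493 to 25836 on the vehicle arrays. It was 19049 to 21635 on the neonatal arrays, against 19141 to 30081 on the 18 adult control arrays. Quantile normalization, which gives all arrays 1 distribution, is therefore set beside the deposited values for the members and for named genes whose call it changed. It gives the same rank the same value on every array, so for a probe set at the top of all arrays an effect near 0 follows from the method and tests nothing. Of 13 measured cardiomyocyte markers (16 listed), none was above its control in AngII or Ditpa (medians -0.60 and -0.58 log2, none called), and after quantile normalization the medians were -0.02 in both. None of those 13 was at the lowest signal allowed, 16, in any group. The natriuretic peptide gene Nppa, the usual marker of hypertrophy, was higher by 1.77 ± 0.0829 log2 on average (limma adjusted p = 3.45e-16). Within AB30, replicate 4 stood apart from the other 3 arrays in 4 of the 22 probe sets, so calls to which AB30 contributed are also given without it.

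Sequence upstream of the start is shown for the pump, its inhibitor and calsequestrin, since the first pair is compared as a ratio and the last was called in both MI9 and neonatal hearts. The windows hold 250 bases before and 50 after the RefSeq start in build GRCr8, of the 7 members listed there, and capitals mark the motifs searched on both strands.
Atp2a2 (chr12:39733269-39733568, + strand): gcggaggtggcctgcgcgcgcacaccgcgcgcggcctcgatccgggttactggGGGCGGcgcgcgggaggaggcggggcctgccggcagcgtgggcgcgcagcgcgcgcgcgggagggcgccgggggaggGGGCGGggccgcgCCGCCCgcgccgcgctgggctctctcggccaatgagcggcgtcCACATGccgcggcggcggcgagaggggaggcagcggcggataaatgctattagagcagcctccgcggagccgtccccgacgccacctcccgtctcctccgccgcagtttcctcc
Pln (chr20:33172244-33172543, + strand): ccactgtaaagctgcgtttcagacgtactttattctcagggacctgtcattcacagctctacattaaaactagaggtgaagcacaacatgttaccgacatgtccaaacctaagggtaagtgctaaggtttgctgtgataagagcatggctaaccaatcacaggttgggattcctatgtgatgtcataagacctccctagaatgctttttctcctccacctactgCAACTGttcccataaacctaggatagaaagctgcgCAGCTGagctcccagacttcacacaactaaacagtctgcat
Casq2 (chr2:192214306-192214605, + strand): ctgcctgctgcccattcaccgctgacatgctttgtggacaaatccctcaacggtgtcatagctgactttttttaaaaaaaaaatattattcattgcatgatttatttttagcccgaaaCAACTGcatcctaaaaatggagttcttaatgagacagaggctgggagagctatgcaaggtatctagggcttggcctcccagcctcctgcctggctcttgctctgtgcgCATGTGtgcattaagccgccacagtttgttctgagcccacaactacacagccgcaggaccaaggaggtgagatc
The GC box GGGCGG was found 3 times in the Atp2a2 window, whose GC content was 79%, and not in those of Pln (45%) or Casq2 (47.7%). Of the 7 windows, 3 held it (Atp2a2, Ryr2 and Camk2d), against 33.1% of all 33469 promoters in the table. The E-box CANNTG was found once in Atp2a2, 2 times in Pln and 2 times in Casq2. It was in 6 of the 7 windows, against 72.1% of all. The receptor motif AGGTCA, bound by the thyroid hormone receptor, was in the Ryr2 window alone (16.2% of all), and the GATA motif AGATAA in none of the 7 (11.6% of all). Overlapping letters of different motifs did not occur in the windows printed.

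Averaged over the 10 treated groups, 1 of the 22 probe sets was called (4.55%), against 5.21% of all probe sets, and the single call was Slc8a1 X68191_at, of the sodium-calcium exchanger. Calls in the higher direction made up 3.64% of all. Its signal was 230 to 636 (median 367) on the 26 hypertrophic arrays, against 219 to 390 (median 298) on the 18 control arrays, and it exceeded the mean of its own controls on 22 of 26 arrays. The average effect was 0.28 ± 0.0788 log2 (fold change 1.21, limma adjusted p = 0.0299). The lower part of the treated range overlapped the control range. The call was lost without any 1 of 12 arrays (limma adjusted p of up to 0.103, for the second vehicle array) and with equal weights for the 5 models (0.188). Without AB30 replicate 4 the effect was 0.27 (limma adjusted p = 0.0309), and Atp2a2 J04024_at was then called as well (-0.16, 0.0486). The X68191_at effect was 0.27 after quantile normalization (limma adjusted p = 0.0633, not called). By the mean of its 5 probe sets Slc8a1 was at 0.08 log2 (limma adjusted p = 0.19, gene means). Its brightest probe set, S67769_s_at, exceeded its own controls on 14 of 26 arrays. Of 9 fibroblast markers 6 were called higher in the same average, with a median of 0.38 log2, and their part in the exchanger result was not tested.

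The members as a group were near the level of all probe sets, with a median effect of -0.05 log2 against 0.01. Of the 22, 15 had an average effect below 0, and 7 reached an unadjusted p under 0.05 in limma. After quantile normalization 3 probe sets were called, all lower: Atp2a2 rc_AA957510_s_at (-0.18), Atp2a2 J04024_at (-0.18) and Cacna1c M59786_at (-0.14). The share of all probe sets called after that normalization is not given here, so these 3 cannot be set against it. With the methods' rank sum test of hypertrophic against control ratios, Bonferroni-corrected over all probe sets, none of the 22 passed.

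**Figure D1:**
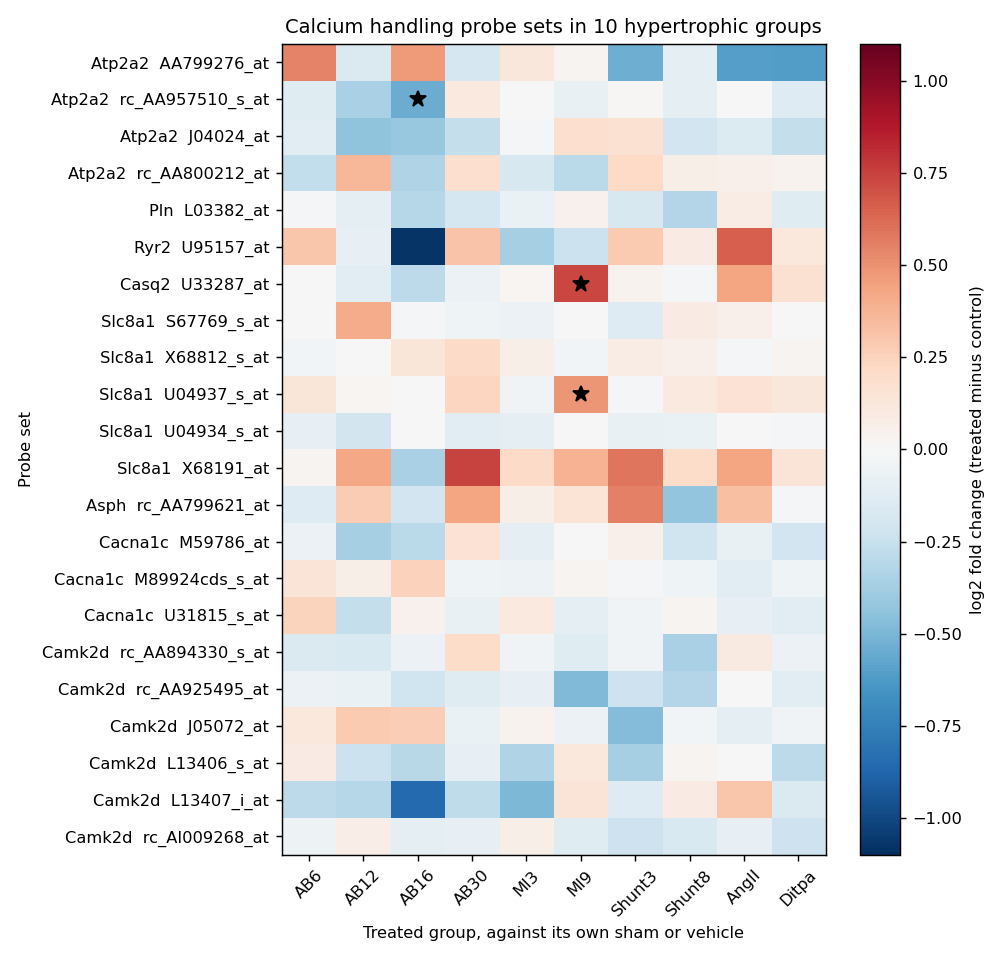
Log2 fold change of the 22 probe sets (rows) in the 10 treated groups (columns), each against its own sham or vehicle arrays, with red for higher and blue for lower; stars mark the 3 called by limma. The stars lie at AB16 for Atp2a2 rc_AA957510_s_at (-0.55) and at MI9 for Casq2 (0.74) and Slc8a1 U04937_s_at (0.48), and probe sets of 1 gene often differ in colour.

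Over the 10 treated groups taken singly, 3 calls were made among the members. They were Atp2a2 rc_AA957510_s_at in AB16 and Casq2 and Slc8a1 U04937_s_at in MI9. No member was called in AB6 (0.652% of all probe sets called), AB12 (0.355%), AB30 (1.12%), MI3 (0.206%), Shunt3 (0%), Shunt8 (0.0458%), AngII (0%) or Ditpa (0%). In those groups limma gave an unadjusted p under 0.05 for 0 (MI3) to 4 (AB12) of the 22. Where all 10 groups had few calls, a member without a call is not shown to be unchanged.

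Atp2a2, which encodes the pump SERCA2, fell in banding by 2 of its 4 probe sets. Over the 4 banding times, 2 of the 22 members were called (9.09%), against 5.26% of all probe sets, and both were Atp2a2 and lower, against 1.98% called lower of all. In J04024_at the signal was 1993 and 1911 in AB6, against 2091 and 2159 in its sham hearts. It was 1797 and 1979 in AB12, against 2340 and 2793 in sham. Neither pair of groups overlapped.

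At the later times J04024_at was 1507 and 2491 in AB16, against 2600 and 2566 in sham, and 1392, 1201, 1407 and 1744 in AB30, against 1814 and 1613 in sham. Only AB30 overlapped its sham arrays, through replicate 4. The banding effect was -0.31 ± 0.0798 log2 (fold change 0.806, limma adjusted p = 0.0154), and -0.33 without AB30 replicate 4 (limma adjusted p = 0.00524). The call was lost without AB16 replicate 1 (-0.22, limma adjusted p = 0.0741) and without AB30 sham replicate 5 (-0.29, 0.0505).

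In rc_AA957510_s_at the largest gap was at 16 weeks, with 3667 and 4443 in AB16 against 5564 and 6251 in sham, an effect of -0.55 ± 0.134 log2 (fold change 0.684, limma adjusted p = 0.0459). In AB16, 0.709% of all probe sets were called. At 6 weeks the signal was 4024 and 4305 in AB6, against 4777 and 4386 in sham, and at 12 weeks 3558 and 4658 in AB12, against 5516 and 4907 in sham. These 3 times showed lower banded hearts with no overlap.

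At 30 weeks rc_AA957510_s_at gave 4115, 4152, 3876 and 4686 in AB30, against 3921 and 3883 in sham, which overlapped and leaned the other way (0.11 log2, or 0.05 without replicate 4, neither called). Over the 4 times the effect was -0.23 ± 0.065 (limma adjusted p = 0.0283) and -0.25 without AB30 replicate 4 (limma adjusted p = 0.0172). The banding call was lost without any 1 of 7 banding or sham arrays, with a limma adjusted p of up to 0.101 without AB12 replicate 1. The AB16 call was lost in 32 of 46 fits that left out 1 array, among them all 4 fits without an AB16 or AB16 sham array (limma adjusted p of up to 0.935, without AB16 sham replicate 4).

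The other 2 Atp2a2 probe sets were not called in banding. AA799276_at, the brightest, was 50874 and 55154 in AB6, against 26176 and 50171 in sham, and 45015 and 50378 in AB16, against 32543 and 36585 in sham. It was 42146 and 48258 in AB12, against 55763 and 45500 in sham, and 44588, 33493, 40382 and 28822 in AB30, against 46086 and 37001 in sham. The banded arrays thus lay above sham at 6 and 16 weeks and overlapped it at 12 and 30 weeks, where the effects were -0.16 and -0.19. Over the 4 times AA799276_at was at 0.17 ± 0.102 (limma adjusted p = 0.437). The fourth, rc_AA800212_at, was at -0.01 ± 0.0948. Over the mean of all 4 probe sets the banding effect of Atp2a2 was -0.10 (limma adjusted p = 0.274, gene means), so the lower pump signal of banding rests on which probe set is read. Fibroblast markers were higher in banding, 6 of 9 called with a median of 0.46 log2 (4 called after quantile normalization), and their part in the lower pump signal was not tested.

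**Figure D2:**
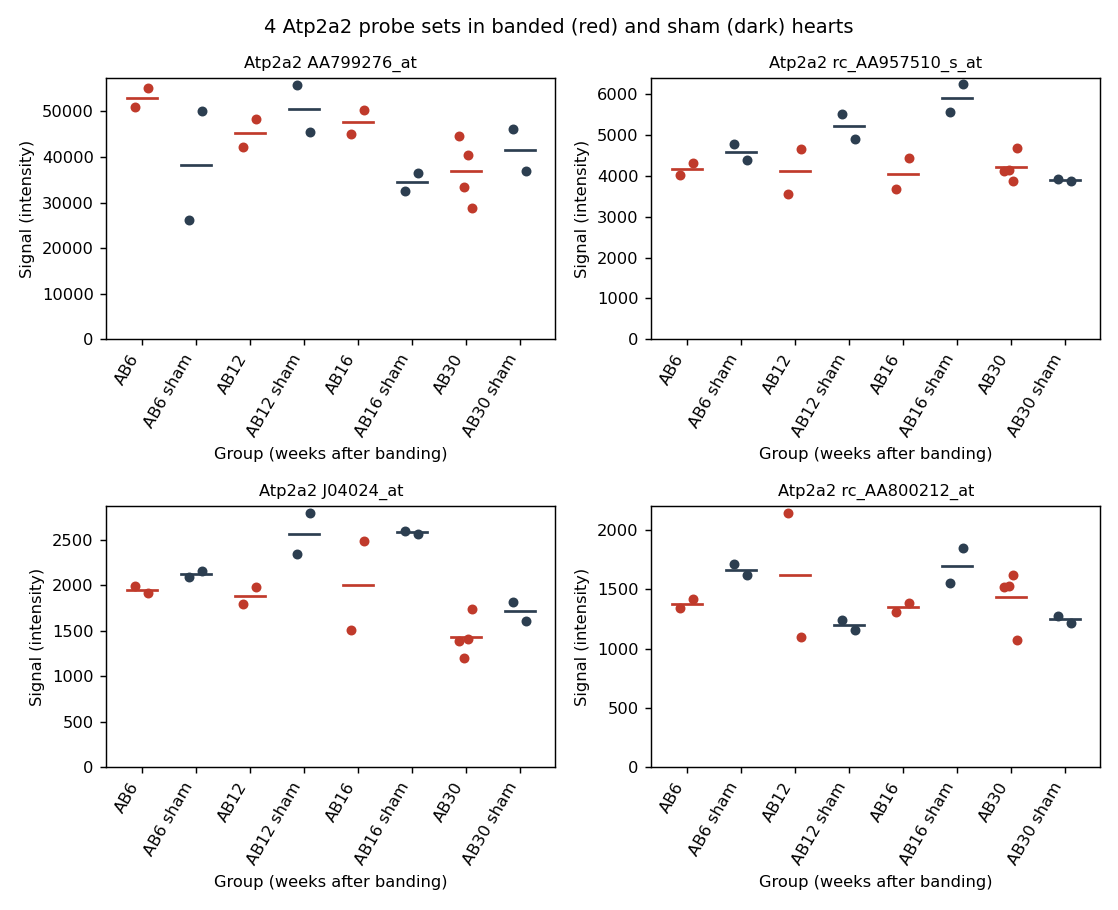
Signal (linear intensity) of the 4 Atp2a2 probe sets on each array of the banded groups (red) and their sham groups (dark) at 6, 12, 16 and 30 weeks; points are arrays and bars the group means. In J04024_at the AB12 arrays (1797 and 1979) lie below sham (2340 and 2793), while in AA799276_at the AB16 arrays (45015 and 50378) lie above sham (32543 and 36585).

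AA799276_at sits at the top of the arrays, at a mean rank of 10 among 8740 probe sets and between rank 8 and 42 on any array. It was 21707 and 22616 in AngII and 22153 and 21972 in Ditpa, against 37121 and 30660 in vehicle, without overlap. The effects were -0.61 ± 0.212 for AngII (limma adjusted p = 0.639) and -0.61 ± 0.212 for Ditpa (0.548). On these arrays the 99th percentile was lower too, and whether the pump signal differed apart from it was not tested, since quantile normalization fixes a value of this rank. Over the 26 hypertrophic ratios its most alike probe sets were 2 of Myl2, the ventricular light chain (r = 0.98 and 0.98), and 1 of Atp5f1a, a subunit of the mitochondrial ATP synthase (0.98). The part of the shared bright end of the arrays in these r values was not tested. In Ditpa the other 3 Atp2a2 probe sets were at -0.14, -0.26 and 0.03 log2, none of them called. Thyroid hormone is known to raise the pump in the rodent heart. Myh6, another thyroid hormone target, was at -0.55 in Ditpa and at -0.56 in AngII, and was called in neither. After quantile normalization Myh6 was at 0.03 in Ditpa. Its mean rank was 33 of 8740, so a value near 0 can follow from the method and does not show an unchanged gene.

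**Figure D3:**
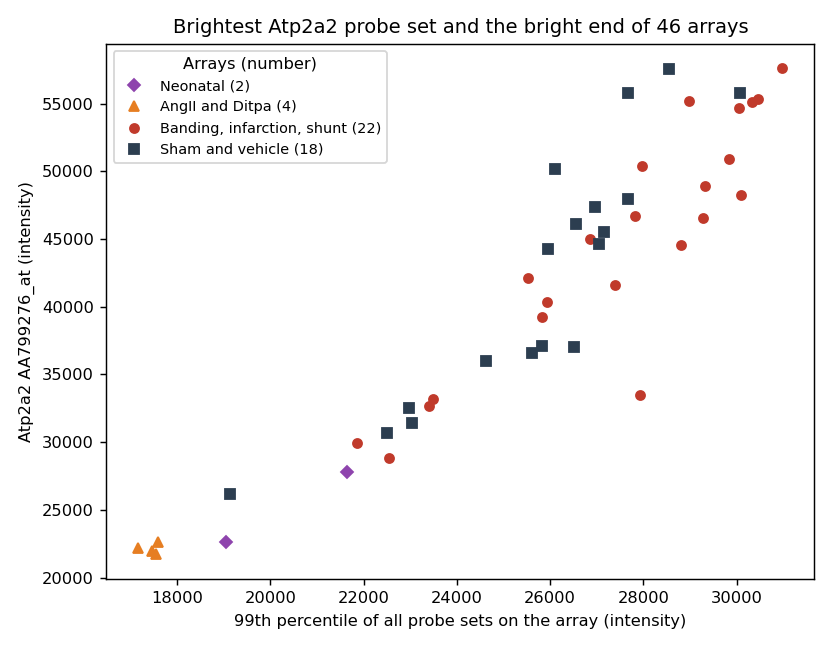
Signal of Atp2a2 AA799276_at (vertical) against the 99th percentile of all probe sets on the same array (horizontal), both linear intensities, for 46 arrays. The 4 hormone arrays sit at the lower left (21707 to 22616 at percentiles of 17174 to 17587), below both vehicle arrays (37121 and 30660 at 22493 to 25836).

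Pln, the gene of phospholamban, was not called in any treated group, model or average. Its signal was 8399 to 17656 (median 12249) on the hypertrophic arrays, against 8762 to 18793 (median 13122) on the control arrays. The average effect was -0.12 ± 0.0726 log2 (95% interval -0.27 to 0.03, limma adjusted p = 0.455), with 8 of 26 arrays above their own controls. In AB16 the signal was 10079 and 9261, against 11431 and 12656 in sham, without overlap (-0.32 log2, not called). AB30 replicate 4 had the highest Pln signal of its group, at 17054, against 10179 to 12003 on the other AB30 arrays.

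The ratio of inhibitor to pump, taken as Pln minus Atp2a2 in log2 signal of their brightest probe sets, changed by -0.02 on average over the 10 groups (two-sided permutation test, 100000 permutations within model and time, p = 0.891). The group values ran from -0.78 in AB16 to 0.69 in AngII and took both signs. In AB16 the ratio was -2.44 to -2.16, against -1.53 to -1.51 in sham, and in AngII it was -1.09 to -0.76, against -1.62 to -1.60 in vehicle. With the second brightest Atp2a2 probe set these 2 differences were 0.23 and 0.09, so the sign at AB16 turned with the probe set. Quantile normalization gave -0.13 for the ratio (permutation p = 0.0316), with the AA799276_at term all but fixed by its rank.

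Of the release and store genes, calsequestrin rose in the 9-week infarcted hearts. Casq2, the calcium-binding protein inside the store, was at 8086, 7572, 10176 and 6472 in MI9, against 4849 and 4702 in sham. All 4 infarct pools lay above both sham pools. The effect was 0.74 ± 0.192 log2 (fold change 1.67, limma adjusted p = 0.0371), in a comparison where 2 of 22 members (9.09%) and 1.92% of all probe sets were called, with 1.69% of all called higher. In MI3 the signal was 6293, 6783, 6561 and 5237, against 5815 and 6389 in sham, which overlapped (0.02 log2).

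The MI9 sham arrays were among the lower control arrays for Casq2, whose range over the 18 was 4557 to 7179, and 3 of the 4 MI9 pools lay above that range. The MI9 effect was 0.61 after quantile normalization (limma adjusted p = 0.0703, not called), and the call was lost without MI9 sham replicate 5 (0.289), MI9 sham replicate 6 (0.225), MI9 replicate 1 (0.1) or MI9 replicate 3 (0.127). Over both infarction times Casq2 was at 0.38 ± 0.136 (limma adjusted p = 0.197), and no member was called there, against 1.96% of all probe sets. The change between the times was 0.72 (95% interval 0.16 to 1.27, limma adjusted p = 0.655). Of 6 macrophage markers 3 had an effect above 0 in MI9 (median 0.02 log2, 1 called), led by Lyz2 (1.47) and C1qb (1.07). Their summed signal was 13267 to 38907 in MI9, against 12131 to 12357 in sham. The summed signal of 9 fibroblast markers, all with an effect above 0 (3 called), was 53384 to 79443, against 48958 to 50284. That of the 13 cardiomyocyte markers was 425522 to 507420 in MI9, against 416320 to 491731 in sham, and the part of these in the Casq2 result was not tested.

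Ryr2, the ryanodine receptor of the heart, was not called in any treated comparison as fitted, though it was in AB16 with array weights. Its largest gap was in AB16, with 560 and 392 against 824 and 1192 in sham, an effect of -1.08 ± 0.35 (limma adjusted p = 0.191). The AB16 arrays lay below both sham arrays, but other sham pairs also spread widely, as in AB12 sham with 1284 and 513. In AngII the signal was 1056 and 1073, against 554 and 818 in vehicle (0.66 log2, not called). The average effect was 0.00 ± 0.112 (95% interval -0.23 to 0.23).

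Asph is a locus that encodes junctin, an anchor of calsequestrin at the release channel, junctate and an aspartate hydroxylase, and which of these rc_AA799621_at reads was not analysed here. It was 4295 and 3740 in Shunt3, against 2658 and 2815 in sham, and 3766 and 4210 in Shunt8, against 5395 and 5392 in sham. Neither pair overlapped, and they differed in opposite directions (0.55 and -0.44 log2). The change between the times was -0.99 ± 0.418 (limma adjusted p = 1), and the shunt comparison as a whole called no member, against 0.0458% of all probe sets. The average effect of Asph was 0.10 ± 0.0947 (limma adjusted p = 0.694).

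At the cell surface, the exchanger Slc8a1 gave the other call of MI9. U04937_s_at was 1284, 1193, 1626 and 1058 in MI9, against 1007 and 824 in sham, so that all infarct pools lay above both sham pools. The effect was 0.48 ± 0.131 (fold change 1.40, limma adjusted p = 0.0456). After quantile normalization it was 0.44 (limma adjusted p = 0.0854), and the call was lost in 24 of 46 fits that left out 1 array, with an adjusted p of up to 0.475 without MI9 sham replicate 6. The other 4 Slc8a1 probe sets were at 0.38 (X68191_at), 0.00, -0.03 and 0.00 log2 in MI9.

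X68191_at, the called probe set of the average effect, had its largest effect in AB30, with 496, 380, 446 and 636 against 241 and 340 in sham. The groups did not overlap, and the effect was 0.75 ± 0.213 (limma adjusted p = 0.0926), or 0.61 without AB30 replicate 4 (0.181). It was 296 and 388 in Shunt3, against 232 and 219 in sham (0.59 log2), and 485 and 478 in AngII, against 390 and 327 in vehicle (0.43). In AB16 it was 242 and 299, against 307 and 387 in sham, and there alone among the 10 groups the effect was below 0 (-0.36).

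**Figure D4:**
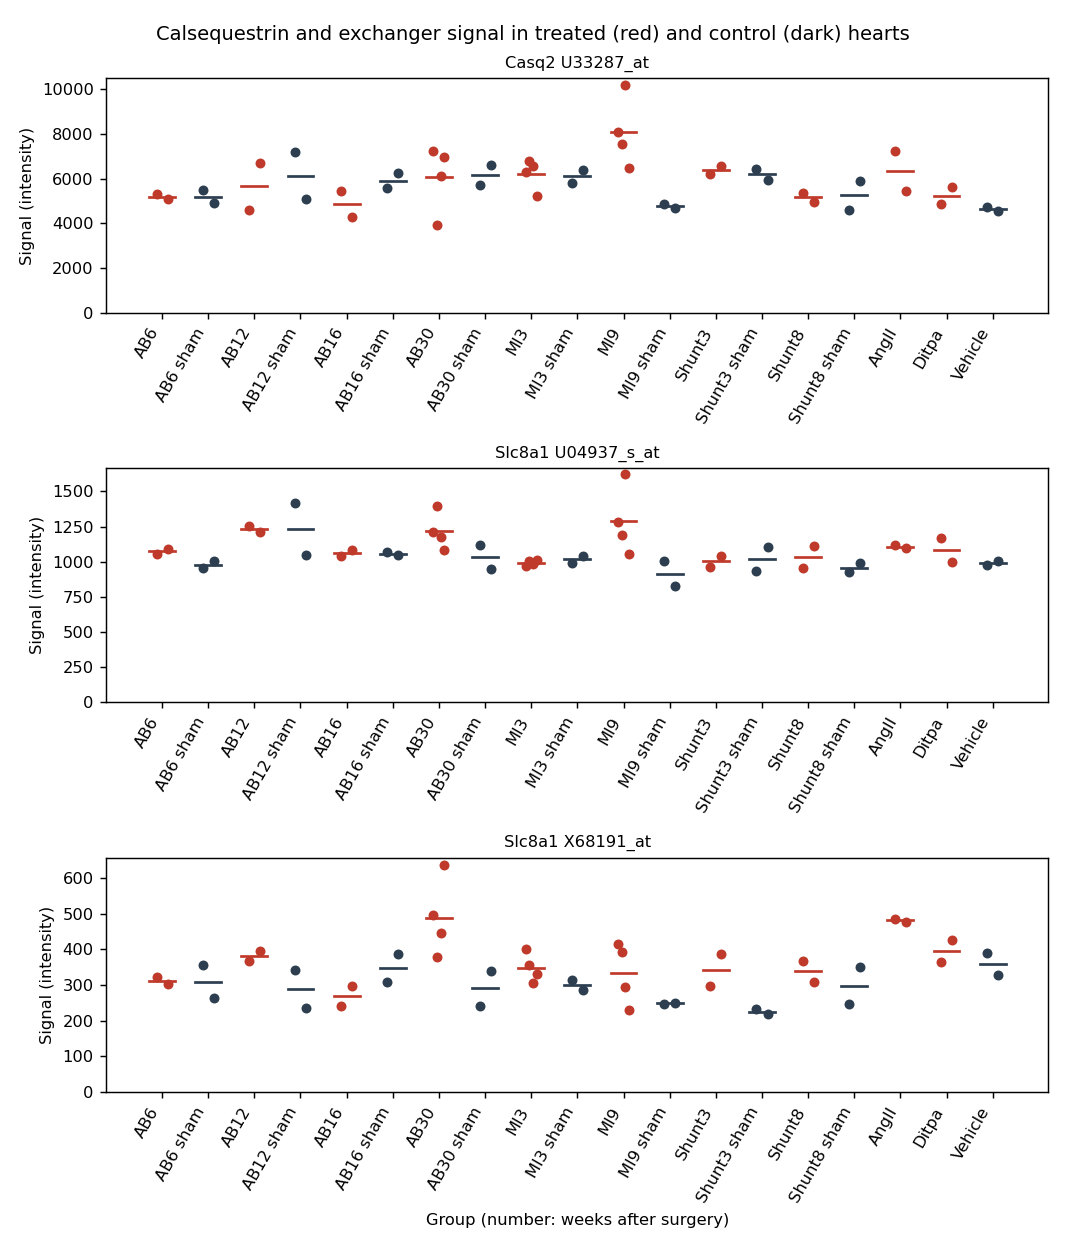
Signal (linear intensity) of Casq2 and 2 Slc8a1 probe sets on each array, treated groups in red and their sham or vehicle groups in dark to their right; points are arrays and bars the group means, and AngII and Ditpa share the vehicle arrays. Casq2 in MI9 (6472 to 10176) and Slc8a1 U04937_s_at in MI9 (1058 to 1626) lie above their sham arrays (4702 to 4849 and 824 to 1007).

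Cacna1c encodes the pore of the L-type calcium channel, and none of its 3 probe sets was called in a treated comparison. M59786_at was 2144 to 2852 (median 2343) on the hypertrophic arrays, against 2053 to 3323 (median 2562) on the control arrays. Its average effect was -0.11 ± 0.0425 (limma adjusted p = 0.14), and -0.14 after quantile normalization (0.0183). In AB12 it was 2402 and 2276, against 3323 and 2723 in sham, without overlap (-0.36 log2, limma adjusted p = 0.357). The other probe sets, M89924cds_s_at and U31815_s_at, averaged 0.02 and -0.03 log2.

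Camk2d encodes the delta isoform of calmodulin-dependent kinase II, the main one of the heart. Its 6 probe sets had average effects of -0.20 to -0.01 log2, and none was called. Without AB30 replicate 4, J05072_at was at 0.00. The largest in the single groups was L13407_i_at in AB16, with 385 and 332 against 621 and 676 in sham (-0.86 log2, limma adjusted p = 0.334). In MI9, rc_AA925495_at was 775, 732, 685 and 707, against 1041 and 986 in sham, without overlap (-0.48 log2, limma adjusted p = 0.297).

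No difference between the models was called for the members. The test of the 5 model effects (banding, infarction, shunt, AngII and Ditpa) called 0 of 22, against 0.275% of all probe sets, and the smallest adjusted p was that of Atp2a2 AA799276_at (limma moderated F, adjusted p = 0.348). At an unadjusted p under 0.05 there were 3 members, with Casq2 and Atp2a2 J04024_at beside it. Ditpa against AngII called 0 of 22 (0.0114% of all probe sets), with none at an unadjusted p under 0.05. The change with time called 0 of 22 in banding (30 against 6 weeks, 0.0114% of all), infarction (9 against 3 weeks, 0%) and the shunt (8 against 3 weeks, 0%), with 2, 2 and 1 members at an unadjusted p under 0.05.

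Neonatal hearts differed from adult control hearts in many probe sets, among the members and outside them. Of the 22 probe sets 9 were called (40.9%), against 32.6% of all probe sets, 5 of them higher (15.5% of all probe sets were called higher) and 4 lower (17%). The members' median was 0.00 log2, against -0.07 over all probe sets, so they did not lean to one side. The exchanger was the gene with the largest rise and Asph the one with the largest fall.

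For Slc8a1, X68191_at was 1384 and 1969 in neonatal hearts, against 219 to 390 (median 298) on the 18 adult control arrays. Both neonatal arrays lay above the highest adult value, and the effect was 2.50 ± 0.184 log2 (fold change 5.66, limma adjusted p = 3e-12). U04937_s_at was 2144 and 2530 in neonatal hearts, against 824 to 1415 (median 1003), an effect of 1.20 ± 0.113 (fold change 2.29, adjusted p = 7.45e-10 in limma). X68812_s_at was 4319 and 4545, against 2522 to 3745 in adult controls, an effect of 0.50 ± 0.0938 (limma adjusted p = 0.000102). These 3 did not overlap with the adult arrays.

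The other 2 exchanger probe sets moved less. S67769_s_at, the brightest of the gene, was 5056 and 7105 in neonatal hearts, against 3428 to 5584 in adult controls (0.32 log2, limma adjusted p = 0.0526). U04934_s_at was 811 and 810.5, against 787 to 1054, and was not called (-0.18 log2). Over the mean of its 5 probe sets Slc8a1 was higher by 0.87 log2 (limma adjusted p = 4.64e-10, gene means).

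Casq2 was 8715 and 9246 in neonatal hearts, against 4557 to 7179 (median 5656) in adult controls, without overlap. The effect was 0.69 ± 0.166 (fold change 1.62, limma adjusted p = 0.00148), and 0.52 after quantile normalization (0.00791). Asph was 1462 and 512 in neonatal hearts, against 2658 to 5395 (median 3295), and the 2 neonatal arrays differed widely from each other. Its effect was -2.03 ± 0.221 (fold change 0.244, limma adjusted p = 1.2e-08), and -1.28 to -2.79 with either neonatal array left out, called both times. Ryr2 was 565 and 491, against 425 to 1284 in adult controls, and was not called (-0.43 log2).

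The pump and its inhibitor fell in the deposited values, and both calls depended on the arrays used. Atp2a2 AA799276_at was 27761 and 22618 in neonatal hearts, against 26176 to 57582 (median 44463) in adult controls, an effect of -0.72 ± 0.158 (limma adjusted p = 0.000598). Quantile normalization, which fixes a value of this rank, gave -0.03 (0.771). The 3 other Atp2a2 probe sets were at -0.11, -0.02 and 0.01, none of them called. After that normalization rc_AA957510_s_at was called (-0.25, limma adjusted p = 0.0205). As deposited, the mean of all 4 probe sets, AA799276_at among them, was at -0.21 ± 0.0741 (limma adjusted p = 0.026, gene means).

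Pln was 10814 and 8057 in neonatal hearts, against 8762 to 18793 (median 13122) in adult controls, with 1 array inside the adult range. The effect was -0.50 ± 0.169 (limma adjusted p = 0.023), and -0.67 after quantile normalization (0.00203). The calls of AA799276_at and Pln were both lost without neonatal replicate 2 (limma adjusted p = 0.0599 and 0.407) and against the vehicle arrays alone (0.19 and 0.536), and that of Pln with the 18 controls as 1 group (0.0711).

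Camk2d moved in opposite directions by probe set. L13406_s_at was 1007 and 1093 in neonatal hearts, against 514 to 978 in adult controls, an effect of 0.64 ± 0.144 (limma adjusted p = 0.00082). J05072_at was 474 and 427, against 507 to 905, an effect of -0.62 ± 0.13 (limma adjusted p = 0.00042). Neither overlapped with the adult arrays, and the other 4 were at -0.15 to 0.50 log2 without a call. For Cacna1c, M89924cds_s_at was 1651 and 1633, against 1762 to 2493, below all adult arrays but not called (-0.29 log2, limma adjusted p = 0.074). With the 18 controls as 1 group it was called (0.0362 in limma), and the other 2 were at 0.04 and -0.03.

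**Figure D5:**
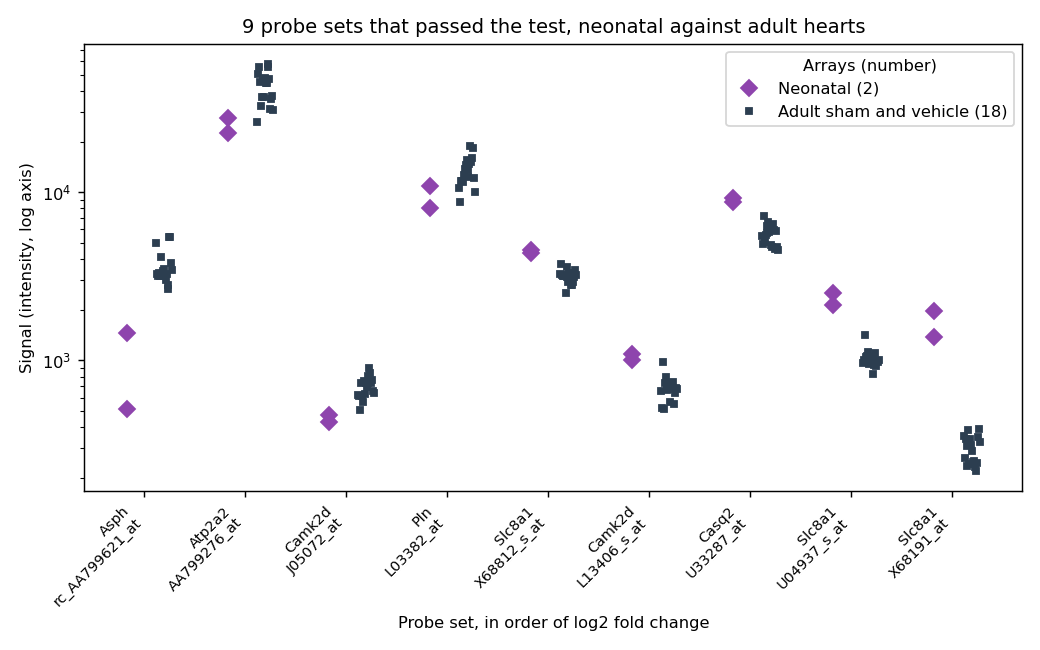
Signal (linear intensity, log axis) on the 2 neonatal arrays (diamonds) and the 18 adult sham and vehicle arrays (squares) for the 9 called probe sets, ordered from the lowest to the highest log2 fold change. Asph (512 and 1462) lies below and Slc8a1 X68191_at (1384 and 1969) above all adult arrays, while Atp2a2 and Pln each have a neonatal array inside the adult range.

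Marker genes moved with the same contrast. The 13 cardiomyocyte markers were all lower in neonatal hearts as deposited (13 called, median -0.70 log2), and 4 were called lower after quantile normalization (median -0.04). Their summed signal was 207218 to 257093 in neonatal hearts, against 267181 to 522482 in adult controls. For markers at the top of the arrays, such as Actc1 and Tnni3, an effect near 0 after quantile normalization follows from the method. The calls lost there thus do not show unchanged markers. Of 9 fibroblast markers 5 were higher and 1 lower (median 1.36). Both genes measured from the atrial marker list, Myl4 (3.35 log2) and Myl7 (1.12), were higher in these samples labelled left ventricle. The part of these in the neonatal differences of the members was not tested.

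Other genes of calcium handling, each by its brightest probe set, were described from 3 lists. Of the store and release list 15 of 24 genes were measured, and in the average effect 1 was higher and 1 lower. Of all probe sets 5.21% were called there, 3.64% higher. The list's median was 0.02 log2, against 0.01 over all probe sets. Calu, a calcium-binding protein of the secretory pathway, rose by 0.21 ± 0.0593 (limma adjusted p = 0.0306). S100a1, a calcium sensor that binds the pump and the release channel, fell by 0.19 on the log2 scale (adjusted p = 0.0206 in limma) and in banding by 0.27 (0.0348). In neonatal hearts, where 15.5% of all probe sets were called higher and 17% lower, 2 of the 15 were higher, Sri, the sorcin gene (0.81), and Calu (0.57), and 2 lower, the inositol trisphosphate receptor Itpr1 (-0.44) and the junctional protein Jph2 (-0.41).

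Of the surface entry and exit list 17 of 22 genes were measured, and none was called in the average effect (median 0.02) or in banding, infarction or the shunt. Of all probe sets 5.21% were called in the average effect, 5.26% in banding, 1.96% in infarction and 0.0458% in the shunt. In neonatal hearts 2 of the 17 were higher, against 15.5% of all probe sets, the T-type channel genes Cacna1g (0.51 ± 0.0987) and Cacna1h (0.45 ± 0.161). Lower were 6 of the 17, against 17% of all, led by the channel subunit Cacnb4 (-0.61), the surface calcium pump Atp2b2 (-0.41) and the cation channel Trpc1 (-0.34), and the list's median was -0.19 log2, against -0.07 over all probe sets.

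Of the kinase, phosphatase and calmodulin list 29 of 35 genes were measured, with 2 called up and 1 down on average (median 0.02). Of all probe sets 5.21% were called in that average, 3.64% higher. The phosphodiesterase Pde4a rose by 0.23 ± 0.0346 (limma adjusted p = 5.17e-05) and the catalytic phosphatase subunit Ppp1ca by 0.16 (0.0444), which was 0.11 and not called after quantile normalization (0.186). Prkaca, the catalytic subunit of protein kinase A, fell by 0.18 (limma adjusted p = 0.0394), and the adenylyl cyclase Adcy6 was called lower after quantile normalization alone (-0.19, 0.0222). In banding 1 of the 29 was higher, Pde4a (0.36), and 2 lower, Adcy6 (-0.33) and the kinase Camk1 (-0.26). Of all probe sets 5.26% were called in banding, 1.98% lower. In neonatal hearts 10 of the 29 were higher and 2 lower (median 0.21), against 15.5% and 17% of all probe sets, and 9 and 1 after quantile normalization, where Camk2a lost its call (limma adjusted p = 0.0784). Among them were Prkar1a (1.16) and Ppp1cc and Ppp2cb (1.11 each) on the higher side, and Prkar2a (-0.72) and Camk2a (-0.36) on the lower.

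Probe sets with the most alike pattern to each member's brightest one were read over the 26 log2 ratios of hypertrophic arrays to their own controls, which share control arrays. For Casq2 they were Nop58 (r = 0.85), S1pr2 (0.85) and Vdac1 (0.85), for Pln Ankfy1 (0.80), Nnt (0.76) and Serp1 (0.76), and for Ryr2 Agtpbp1 (0.80), Pacsin2 (0.80) and Ak4 (0.78). Slc8a1 was nearest to Bdkrb1 (0.90), Kcnh3 (0.87) and Sds (0.87), and Asph to Rchy1 (0.89), Nexn (0.85) and Psme4 (0.85). Camk2d was nearest to Bpnt1 (0.85), Psma4 (0.82) and Gsta4 (0.82), and Cacna1c to Atp2a2 rc_AA957510_s_at (0.77), Rnf130 (0.77) and Ppp3ca (0.75), the calcineurin catalytic subunit. Among the members, 34 pairs of probe sets of the same gene had a median r of -0.03 (-0.50 to 0.68), against 0.03 over 197 pairs of different genes.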

How the data were processed

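The authors hybridized pooled left ventricular RNA to Affymetrix rat genome arrays and made model-based intensity values with dChip (perfect-match-only model, invariant rank normalization; version not given in the sources used here). The deposited values are linear intensities, and no detection calls were used here. Values under 16 were set to 16 before log2 was taken. With limma 3.58.1 in R 4.3.3, the model fitted a mean to each of 20 groups with Benjamini-Hochberg adjustment over 8740 probe sets. The average effect weights 10 treated groups equally, and neonatal hearts were set against the equally weighted 9 adult control groups. The fit was tested on simulated data. Gene symbols come from the platform annotation: 7006 probe sets have 1 symbol, 308 several and 1426 none. Promoter windows are from RefSeq (GRCr8), and which part of a transcript a probe set reads was not analysed here.

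The members and lists were chosen with earlier results of these data known. Named were all 8 members with every probe set, from each list the called genes of the average and neonatal contrasts (at most the 3 largest per direction), the 3 probe sets most alike to each member's brightest, and Nppa, Myh7 and Myh6; list genes called in banding were named after their values were seen. Alternatives were quantile normalization, floors of 1 and 64, the brighter 50% of probe sets, array weights, a variance trend, other weightings and controls, gene means, a rank sum test, a replicate block and leaving out each array. Myh7 was at -0.06 log2 on average (limma adjusted p = 0.725), from a probe set that can read related myosins. Python 3.11.15 and matplotlib 3.10.9 were used for figures.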

Additional observations from a re-analysis of the deposited data

Results flagged for a closer look

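In groups of 4 arrays, 66 sets of values (22 probe sets in AB30, MI3 and MI9) were examined for 1 array far from the other 3, which chance alone gives in about 1 of 20, and 5 were found. AB30 replicate 4 accounts for 4 of them. Its signal was 1072 for Atp2a2 rc_AA800212_at, against 1517 to 1622 on the other AB30 arrays, and 1555 for Cacna1c M89924cds_s_at, against 2066 to 2115. For Camk2d it was 395 in rc_AA925495_at, against 858 to 953, and 621 in L13407_i_at, against 363 to 388. MI9 replicate 1 gave the other, at 337 for Camk2d L13407_i_at, against 595 to 629 on the other MI9 arrays. None of these 4 probe sets was called in AB30, MI9, banding or the average effect.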

How the results depend on the processing

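Among the 22 probe sets, the calls of the average effect (1 as reported) were 3 after quantile normalization, 2 with array weights and 0 with the 13 brighter probe sets, the 5 models weighted equally or the rank sum test, and 0 to 2 without 1 array. The brighter probe sets leave out Slc8a1 X68191_at (14.1 percentile of mean signal), so their 0 does not test that call. The calls of banding (2) were 0 with array weights and 0 to 3 without 1 array, and those of infarction (0) were 1 with array weights. The 3 calls of single groups became 1 after quantile normalization, 7 with array weights, 1 with a replicate block and 0 to 6 without 1 array. Differences between models and changes with time (0 calls each) gave 1 without AB6 sham replicate 4, and differences between models 1 with array weights, so each ran from 0 to 1 without 1 array. The 9 neonatal calls became 7 to 11 without 1 array. Floors of 1 and 64 and a variance trend changed no count by over 1.5 times.

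The 7 single-group calls with array weights were Atp2a2 AA799276_at in AngII and in Ditpa, Atp2a2 rc_AA957510_s_at and Ryr2 in AB16, Slc8a1 X68191_at in AB30, and Casq2 and Slc8a1 U04937_s_at in MI9. Pln minus Atp2a2 (-0.0167 log2) was -0.133 after quantile normalization (permutation p = 0.0316) and -0.0769 to 0.0435 without 1 array. With the second brightest Atp2a2 probe set, an alternative chosen after seeing the data, it was 0.00599 (p = 0.927, permutation test).

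Array numbers that the labels of vehicle, AngII and Ditpa share do not pair the arrays (correlations of deviations -0.04, -0.06 and -0.08). With that number as a replicate block, calls over all probe sets were 2 for AngII (0 without), 0 for Ditpa (0) and 2 for Ditpa against AngII (1), none of them a member, and the shared spread took AB16 Atp2a2 rc_AA957510_s_at to a limma adjusted p of 0.05 and MI9 Slc8a1 U04937_s_at to 0.0527. Leaving out arrays apart, of 109 values of the called probe sets under other settings 97 kept their direction and side of the threshold. Of the rest 12 lost the call, and 0 changed sign. Over all 22 members, called or not, quantile normalization changed the sign of 2 average and 3 neonatal effects, and array weights that of 2 average effects. With 2 pools in most groups, small differences could not be detected, and the number of arrays limits the precision. The cause of these shifts was not tested.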
